A study of Macaca mulatta with 12 samples.

Results

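The miRNAs described here came from 5 pre-miRNAs, mml-mir-144, mml-mir-144-2, mml-mir-451, mml-miR-486 and mml-mir-486, of 832 pre-miRNAs of *Macaca mulatta* that could be read from the annotation table of the study. They were picked out by name, and every entry whose name begins with mml-mir-144, mml-mir-451 or mml-miR-486 was taken. The names were chosen with earlier results of these data known. The 12 small RNA profiles came from 8 tissues of untreated wild-type animals aged 36 months. There were 2 profiles each of kidney, muscle, large intestine and small intestine. Occipital lobe, spinal cord, lung and liver were sampled once each. The methods of the study name a pair of animals, but the labels do not tie a profile to an animal, so p-values measure the spread between these profiles only. All 5 arms of the members passed the abundance filter, which kept 372 of 1222 mature sequences.

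miR-144 and miR-451 are made from 1 precursor transcript that the transcription factor GATA1 switches on during red blood cell formation, and miR-451 is among the most abundant miRNAs of red blood cells. Most miRNAs are cut from their hairpin by the nuclease Dicer, whereas the hairpin of miR-451 is too short for Dicer and is cut by AGO2 in its 3′ arm, after which the 3′ end is trimmed back by PARN. miR-486 is found both in red blood cells and in skeletal and heart muscle, where it is counted among the myomiRs, and its host gene ANK1 encodes ankyrin of the red cell membrane skeleton. Muscle and blood are thus both possible sources of miR-486 in a piece of tissue.

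The sequences of the miR-144 and miR-451 arms are shown first because their seeds and 3′ ends are what the counts below rest on. Capitals mark the seed, bases 2 to 8, which pairs with target mRNAs.
miR-144-3p: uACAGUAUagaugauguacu
miR-144-5p: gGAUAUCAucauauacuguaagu
miR-451-5p: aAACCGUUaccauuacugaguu
No seed was shared among these 3 arms. In the table as read, 0 other mature miRNAs had the seed of miR-144-3p or of miR-451-5p. Bases 2 to 7 of miR-144-3p were shared with 1 other mature miRNA, miR-101-3p, and the seed of miR-144-5p with 1, miR-3074a-3p, which did not pass the abundance filter. The annotation table placed no 5p arm on the miR-144 hairpin, so the commonest read on that arm was used as miR-144-5p.

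In Mmul_8.0.1, mml-mir-451 occupied bases 22890441 to 22890512 and mml-mir-144 bases 22890605 to 22890690 of the minus strand of the same chromosome, 92 bases apart. In the RefSeq annotation of another assembly, T2T-MMU8v2.0, both lie on chromosome 16, outside any listed gene, between the protein-coding genes ERAL1 and FLOT2. The hairpins have the mature arms in capitals.
mml-mir-144: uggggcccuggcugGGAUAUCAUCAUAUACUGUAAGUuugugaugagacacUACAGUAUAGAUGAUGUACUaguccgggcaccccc
mml-mir-451: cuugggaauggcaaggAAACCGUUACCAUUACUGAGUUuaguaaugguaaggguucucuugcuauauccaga
The mml-mir-451 hairpin was the shorter, with 72 bases against 86, and its predicted fold had 30 base pairs and a loop of 4 bases, at bases 35 to 38. The 22 nt of miR-451-5p covered bases 17 to 38 and so ran through the whole of that loop. mml-mir-144-2, on an unplaced scaffold, differed from mml-mir-144 at 0 bases, and reads of the 2 copies cannot be told apart.

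mml-miR-486 and mml-mir-486 were found to be opposite strands of 1 locus. mml-miR-486 was annotated at 43114968 to 43115119 on the plus strand and mml-mir-486 at 43115013 to 43115080 on the minus strand, and all 68 bases of the latter were the reverse complement of a stretch of the former. The locus reads almost the same on both strands: a stretch of 20 bases of miR-486-5p is the reverse complement of a stretch of miR-486-3p. The 2 hairpins therefore give the same miR-486-5p, and their miR-486-3p sequences, of 23 and 21 nt, share most reads, so the 23 nt sequence is used for miR-486-3p unless stated. In T2T-MMU8v2.0 this locus, MIR486 on chromosome 8, lies within ANK1.

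The libraries held 22118095 to 25579064 valid reads, of which 35.9% to 68.4% were assigned to a mature miRNA. Levels are given as RPTM, reads per 10000000 valid reads, at which 1 read was worth 0.391 to 0.452. The muscle profiles held all 7 listed skeletal muscle miRNAs above the other groups, among them miR-133a-3p at 129703 and 144690 RPTM and miR-208b-3p at 2113 and 5326. The liver and neural lists were likewise highest in the profiles with those labels: miR-122a-5p was at 7320 RPTM in liver and at most 4.37 elsewhere, and miR-9-5p was at 383871 and 261318 RPTM in occipital lobe and spinal cord and at most 988 elsewhere. The sum of the intestinal list was higher in liver, at 10533 RPTM, than in large intestine 2, at 9219.

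miR-486-5p was an abundant miRNA in every tissue. Its level was 449799 RPTM in muscle 1 and 815651 in muscle 2, where it ranked 5th and 3rd among the 372 miRNAs. It was 276764 RPTM in occipital lobe, 265062 in lung, 171594 in spinal cord and 119313 in liver. It was 50449 and 83465 RPTM in kidney, 15116 and 17119 in small intestine, and 9347 and 12857 in large intestine. Both muscle profiles were above the other 10 and both large intestine profiles were below them. The within-tissue spread of the 4 tissue pairs was 0.43 on the log2 scale (SD, n = 4 pairs), or 1.35-fold. In the order of tissue means, muscle, occipital lobe, lung, spinal cord, liver, kidney, small intestine, large intestine, only occipital lobe and lung were neighbours closer than this spread.

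miR-451-5p was far less abundant, and its 2 muscle profiles were far apart. Its level was 5006 RPTM in muscle 2, 1362 in lung and 663 in liver. It was 362 RPTM in spinal cord, 234 in occipital lobe, 241 and 308 in kidney 1 and 2, and 295 in muscle 1. In the intestine it was 47.1 and 102 RPTM in the small and 46.1 and 105 in the large intestine profiles. The muscle profiles thus lay on either side of lung and liver. The spread within tissue pairs was 1.56 on the log2 scale (n = 4 pairs) and 0.68 without the muscle pair (n = 3 pairs). In the order of the tissue means, 1 of 7 steps between neighbours was larger than the first spread, that from occipital lobe down to the intestines, 1.75, and 3 of 7 were larger than the second. In bulk tissue such as this, fewer cells of a type and less RNA per cell cannot be told apart.

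miR-144-3p, the arm usually taken as the active one, followed miR-451-5p at a lower level. It was at 242 RPTM in lung, 200 in muscle 2, 131 in liver and 63.2 in spinal cord. It was at 34.8 RPTM in occipital lobe, 25.8 and 32.2 in kidney, and 18.4 in muscle 1. The 4 intestinal profiles were lowest, from 3.16 RPTM, which was 7 reads, to 11.9. miR-144-5p ranged from 5.43 RPTM in large intestine 1 to 506 in muscle 2. Lung, at 208 RPTM, and liver, at 108, came next, and muscle 1, at 35.0, stood eighth of the 12 profiles.

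**Figure D1:**
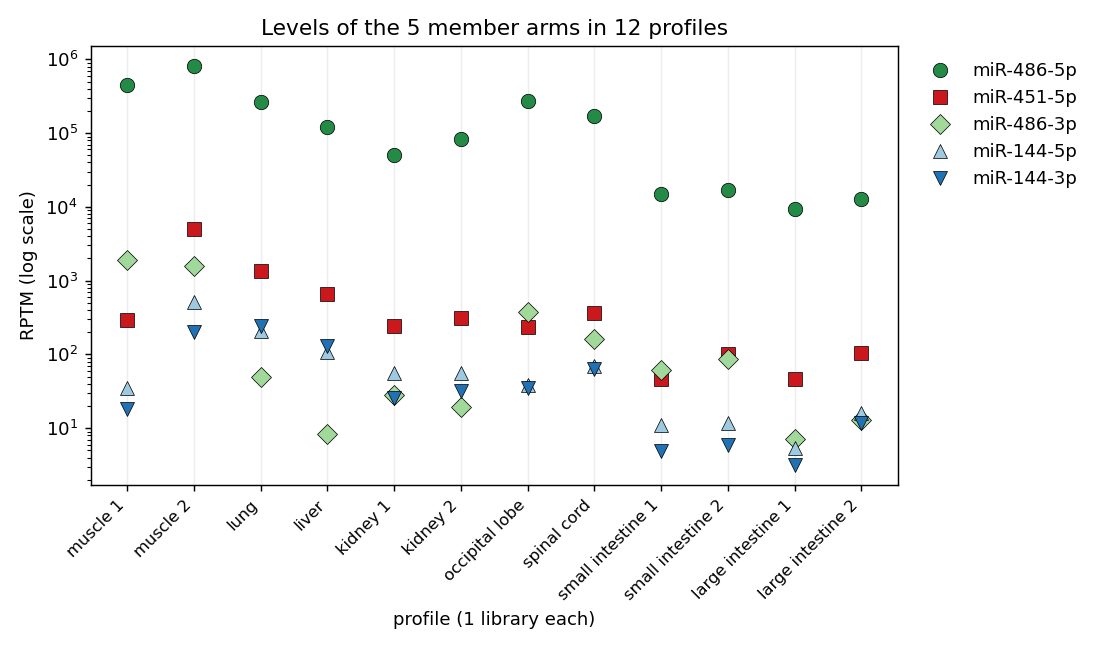
Level of each member arm in each of the 12 profiles, in RPTM on a log axis, with 1 point per library and no error bars. miR-486-5p lies between 9347 and 815651 RPTM, above every other arm in each profile, and the miR-451 and miR-144 points move together, for example from muscle 1 up to muscle 2.

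Across the 12 profiles, miR-451-5p and the miR-144 arms had the patterns most like each other among the 372 miRNAs. On log2(RPTM + 1), miR-451-5p had a Pearson r of 0.98 with miR-144-5p and 0.94 with miR-144-3p (Spearman rho 0.98 and 0.94, n = 12 profiles that share libraries with both measures). Without muscle 2 and large intestine 1, the profiles farthest from the median of miR-451-5p, r was 0.97 and 0.96. Next for miR-451-5p came miR-486-5p (r = 0.85), miR-30b-5p (0.85) and miR-502-3p (0.85). For miR-144-3p the order was miR-144-5p (0.96), miR-451-5p (0.94), miR-27b-3p (0.89), miR-30d-3p (0.86) and miR-30d-5p (0.85). miR-486-5p was most like miRNAs outside this group, let-7f-5p (0.91), miR-30e-3p (0.90), miR-101-3p (0.88), miR-186-5p (0.88) and miR-23b-3p (0.88). Its r with miR-451-5p was 0.87 when the muscle profiles were left out (rho 0.77, n = 10).

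In the muscle contrast, which asks whether an arm was higher in the 2 muscle profiles than in the mean of the other 6 groups, 4 of the 5 member arms were called higher and 0 lower. Over all 372 miRNAs, 22.3% were called higher and 15.3% lower, and the median log2 fold change was -0.22. miR-486-3p rose by 5.61 on the log2 scale (SE 0.39, edgeR adjusted p = 2.5e-07) and miR-486-5p by 3.20 (SE 0.40, edgeR adjusted p = 4.21e-05). For both, each muscle profile was above each of the other 10. The share of all 372 miRNAs for which this held was not counted, so it is a description only. When 1 muscle profile was left out, miR-486-5p stayed higher by 3.53 (without muscle 1, edgeR adjusted p = 0.000128) and 2.82 (without muscle 2, edgeR adjusted p = 0.000921).

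The calls of miR-451-5p and miR-144-5p in muscle rested on 1 library. With both profiles, miR-451-5p was higher by 3.21 (SE 0.59, edgeR adjusted p = 0.00105) and miR-144-5p by 2.53 (SE 0.60, edgeR adjusted p = 0.00556), while miR-144-3p, at 1.58 (SE 0.62), had an edgeR adjusted p of 0.0604. Without muscle 2 the log2 fold change of miR-451-5p was 0.18 (edgeR adjusted p = 0.865) and that of miR-144-5p was -0.29 (edgeR adjusted p = 0.802). miR-144-3p was called higher without muscle 1 (2.44, edgeR adjusted p = 0.0049), liver (1.94, 0.0276), lung (2.02, 0.02) or spinal cord (1.62, 0.045), and stood at -0.86 without muscle 2 (edgeR adjusted p = 0.467). The muscle values of these arms overlapped those of the other profiles, since muscle 1 stood below lung and liver.

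On log2(RPTM + 1), the erythroid miRNAs showed the largest increases from muscle 1 to muscle 2. miR-451-5p was 17.0-fold higher in muscle 2 than in muscle 1, miR-144-5p 14.4-fold and miR-144-3p 10.9-fold, and these were the 3 largest increases among the 372 miRNAs on log2(RPTM + 1). miR-409-5p, named because it came next, was at 3.377 on that scale beside 3.379 for miR-144-3p. It went from 4.59 to 57.1 RPTM, which without the added 1 is a larger fold than that of miR-144-3p. The median difference of all 372 was 0.0074 on that scale, and the middle 90% lay between -1.33 and 1.57. miR-486-5p was 1.81-fold higher in muscle 2, the 52nd largest increase, and miR-486-3p was at 1921 RPTM in muscle 1 and 1587 in muscle 2, a ratio of 0.826. In the other tissues with 2 profiles, miR-451-5p differed by 1.28-fold in kidney, 2.17-fold in small intestine and 2.28-fold in large intestine.

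Markers of blood and endothelial cells were set beside these differences. The 11 measured members of a list of other miRNAs that red cells hold in quantity summed to 62365 RPTM in muscle 1 and 68174 in muscle 2. The largest part of that sum was miR-101-3p, at 33227 and 25290 RPTM and so lower in muscle 2, and within the list miR-92a-3p was at 11711 and 21533, miR-16-5p at 9506 and 10717, and miR-25-3p at 6162 and 8360. All of these are also made by many other cell types. The 6 white blood cell miRNAs summed to 2378 and 3209 RPTM, with miR-150-5p of lymphocytes at 1473 and 2354 and miR-146a-5p at 301 and 186. miR-126-3p of endothelium was at 1769 and 2049 RPTM. The part of blood content in the difference between the muscle profiles was not tested.

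**Figure D2:**
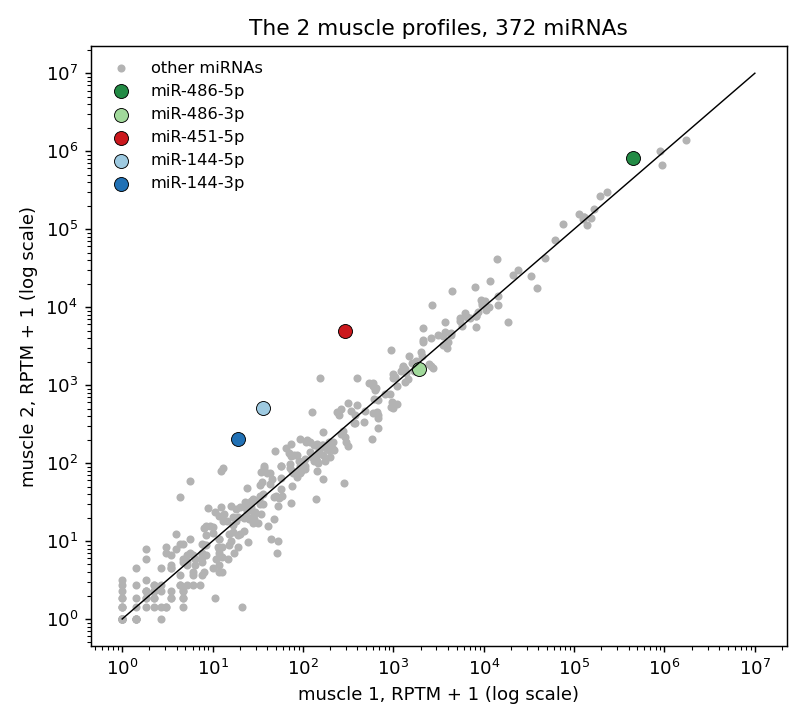
Level of each of the 372 miRNAs in muscle 1 (x axis) against muscle 2 (y axis), as RPTM + 1 on log axes, with the line of equal levels. The 3 arms of miR-451 and miR-144 lie farthest above the line, 10.9-fold to 17.0-fold higher in muscle 2, with miR-409-5p almost level with miR-144-3p. miR-486-5p lies near the line at 1.81-fold and miR-486-3p just under it.

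In muscle, 2 of the 11 other erythroid-rich miRNAs were called higher and 1 lower, beside 22.3% higher and 15.3% lower of all miRNAs, with a median log2 fold change of 0.17 beside -0.22 for all miRNAs. miR-16-5p rose by 1.23 (edgeR adjusted p = 0.00648) and miR-92a-3p by 0.97 (edgeR adjusted p = 0.029), whereas miR-107-3p, named because it was the 1 member called lower, fell by 1.37 on the log2 scale (edgeR adjusted p = 0.0116). Of the 6 white blood cell miRNAs, 1 was called higher in muscle, miR-150-5p at 1.52, and 3 lower, with a median of -1.05. The 7 skeletal muscle miRNAs were all called higher, with a median of 9.35, so the log2 fold changes of the miR-486 arms, 3.20 and 5.61, were smaller than the median of the muscle list. The 1 list member that did not pass the filter was miR-20b-5p. In the other contrasts the erythroid-rich list had 3 called higher and 3 lower in neural tissue, beside 43.5% and 24.2% of all miRNAs, 2 higher in small intestine, beside 13.2%, 1 higher in kidney, beside 12.9%, and 0 in large intestine, beside 11.8%. Of the white blood cell miRNAs, 6 of 6 were called lower in neural tissue, 5 higher in small intestine and 4 higher in large intestine.

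In the large intestine 2 of 5 member arms were called lower and 0 higher, beside 4.84% lower and 11.8% higher of all miRNAs. miR-486-5p fell by 2.76 on the log2 scale (SE 0.57, edgeR adjusted p = 0.00486) and miR-486-3p by 2.25 (SE 0.53, edgeR adjusted p = 0.0119). In the small intestine 2 of 5 were called lower and 0 higher, beside 4.57% lower and 13.2% higher. These were miR-486-5p, which fell by 2.24 (SE 0.55, edgeR adjusted p = 0.0132), and miR-144-3p, which fell by 2.71 (SE 0.87, edgeR adjusted p = 0.0496). miR-486-3p was not called there, at 61.8 and 86.0 RPTM.

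Several of these calls were lost when 1 library was removed. Without large intestine 1 the miR-486-5p difference was -2.46 (edgeR adjusted p = 0.11) and the miR-486-3p difference -1.82 (edgeR adjusted p = 0.191). Without small intestine 1 or 2, the miR-486-5p difference was -2.21 (edgeR adjusted p = 0.1) or -2.29 (edgeR adjusted p = 0.115). The miR-144-3p call in small intestine, which rested on 12 and 14 reads, was also lost without kidney 1, kidney 2, large intestine 2, liver, lung or either small intestine profile, with edgeR adjusted p from 0.0678 to 0.279. miR-451-5p was at a log2 fold change of -2.04 in small intestine (SE 0.81, edgeR adjusted p = 0.0913) and -1.86 in large intestine (SE 0.80, edgeR adjusted p = 0.145). Its small intestine difference passed without muscle 1 (edgeR adjusted p = 0.00914) or muscle 2 (edgeR adjusted p = 0.0452), and its large intestine difference without muscle 1 (edgeR adjusted p = 0.0144). Without muscle 1, miR-144-5p was called lower in small intestine (edgeR adjusted p = 0.0149) and large intestine (0.0192), and miR-144-3p in large intestine (0.0332). miR-486-3p in small intestine, at 0.98, was called higher only without occipital lobe (edgeR adjusted p = 0.0147) when 1 profile at a time was left out.

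In the neural group, occipital lobe and spinal cord together, 1 of 5 member arms was called higher and 0 lower, beside 43.5% higher and 24.2% lower of all miRNAs. The median of all miRNAs was 0.88 in this contrast. miR-486-3p, at 373 and 162 RPTM, was higher by 1.42 (SE 0.39, edgeR adjusted p = 0.00646), which is 0.53 above that median. The call was lost without occipital lobe, at 0.35 (edgeR adjusted p = 0.503), or without liver, at 0.86 (edgeR adjusted p = 0.0799). miR-486-5p was at 0.41 (SE 0.45, edgeR adjusted p = 0.425) and miR-451-5p at -1.59 (SE 0.78, edgeR adjusted p = 0.0868), and without muscle 1 or muscle 2 the latter was called lower (edgeR adjusted p = 0.00598 and 0.0412), as was miR-144-5p without muscle 1 (0.0194). The neural values depended on the scale. With total valid reads and no TMM factors, miR-486-5p in neural tissue was called higher, at 1.51 (edgeR adjusted p = 0.00174). miR-144-3p was at -0.92 with TMM factors and at 0.29 without them, and was called on neither scale. In kidney 0 of 5 arms were called in either direction, beside 12.9% higher and 4.57% lower. Before adjustment 1 of them, miR-486-3p, with a log2 fold change of -1.24, was past 0.05 (edgeR adjusted p = 0.0988). That arm was called lower in kidney with total valid reads and no TMM factors (-1.62) and with any 3′ end allowed (-1.40). With each of the 8 tissues as its own group it was called as well (-1.33). It was not called without the abundance filter or with the size factors of DESeq2 in edgeR. DESeq2 called 0 of the 5 arms in kidney, and miR-486-3p was called lower there without liver, occipital lobe or spinal cord (edgeR adjusted p = 0.0197, 0.046 and 0.016).

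Whether miR-486 in muscle went beyond what the erythroid miRNAs would give was asked through ratios within a library, where depth cancels. miR-486-5p had 1527 reads per miR-451-5p read in muscle 1 and 163 in muscle 2. In the other profiles the ratio was 1184 in occipital lobe, 474 in spinal cord, 321 and 168 in small intestine, 209 and 271 in kidney, 203 and 122 in large intestine, 195 in lung and 180 in liver. Muscle 1 was therefore the highest of the 12 and muscle 2 the eleventh. Reads of miR-451 whose 3′ end lay more than 2 nt from the annotated one are not in this ratio, and with them muscle 2 ranked 7th, as given with the lengths of miR-451. The mean log2 ratio was 8.96 in muscle and 8.03 in the other 10, a difference of 0.93 that was not larger than the spread (two-sided exact permutation test, p = 0.394, 0.394 adjusted over 2 ratios). The smallest p that 66 arrangements can give is 0.0303.

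The ratio to miR-144-3p gave a larger difference, and it too did not pass. It was 24504 in muscle 1, 4069 in muscle 2, 7960 in occipital lobe and from 913 in liver to 3079 in small intestine 1 in the other 9. The mean log2 ratio was 13.29 in muscle and 11.13 elsewhere, a difference of 2.16 (two-sided exact permutation test, p = 0.0606, 0.121 adjusted). Muscle 1 ranked first of the 12 profiles, and muscle 2 came after occipital lobe. The count behind muscle 1 was 44 reads of miR-144-3p.

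Set against the other tissues, muscle 1 held more miR-486-5p than any of their ratios would give, and muscle 2 did not. At the median ratio of the other 10 profiles to miR-451-5p, muscle 1 held 7.42-fold and muscle 2 0.791-fold the miR-486-5p that its miR-451-5p would give. Taking the highest of those ratios, that of occipital lobe, muscle 1 held 1.29-fold and muscle 2 0.138-fold. With miR-144-3p as the reference the figures at the median were 9.24-fold and 1.53-fold, and at the highest ratio 3.08-fold and 0.511-fold. These are comparisons with single libraries and carry no test.

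**Figure D3:**
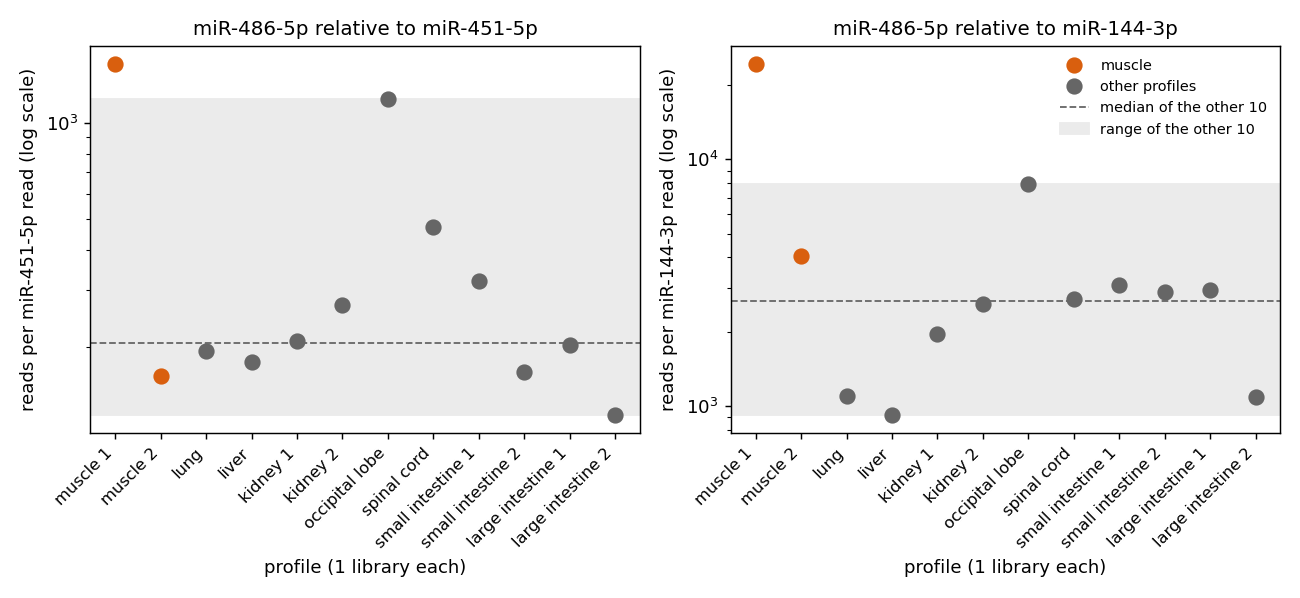
Reads of miR-486-5p per read of miR-451-5p (left) and of miR-144-3p (right) in each profile, on log axes, with the median (dashed) and range (grey) of the 10 profiles that are not muscle. Muscle 1, at 1527 and 24504, lies above both ranges, while muscle 2, at 163 and 4069, lies inside both.

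With the sum of miR-451-5p and miR-144-3p reads used as the library size for all 372 miRNAs, miR-486-5p in muscle was at a log2 fold change of 1.82 (SE 1.08, edgeR adjusted p = 0.349). The median of all miRNAs was -1.32 on this scale. Without muscle 2 the value was 2.67 (edgeR adjusted p = 0.0124) and without muscle 1 it was -0.52 (edgeR adjusted p = 0.714), so the answer for miR-486-5p differed between the 2 muscle libraries. miR-486-3p in muscle was higher on the same scale by 4.75 (SE 1.0, edgeR adjusted p = 9.07e-05). It was also called higher in small intestine, at 2.76 (edgeR adjusted p = 0.0246), and in neural tissue, at 2.57 (edgeR adjusted p = 0.025). The medians of all miRNAs in these 2 contrasts were 1.80 and 2.01 on this scale. Of the 372 miRNAs, 90 were called higher in small intestine and 155 in neural tissue, beside 18 in muscle. The small intestine and neural calls depended on which miR-486-3p sequence was used. That of the minus strand hairpin was called higher in muscle, at 4.06 (edgeR adjusted p = 0.00126). It was not called in small intestine, at 2.30 (edgeR adjusted p = 0.0734), or in neural tissue, at 2.18 (edgeR adjusted p = 0.0625). The miR-486-5p differences in small and large intestine were not called on this scale, at -0.31 (edgeR adjusted p = 0.866) and -0.99 (edgeR adjusted p = 0.549). Both lay below the medians of all miRNAs in these contrasts, 1.80 and 1.78, so miR-486-5p stayed low beside the other miRNAs. Per miR-451-5p read there were 6.52 reads of miR-486-3p in muscle 1 and 0.317 in muscle 2, against 0.0128 in liver to 1.60 in occipital lobe, so here too muscle 1 stood above the other 10 and muscle 2, sixth of 12, among them.

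The passenger arm of miR-486 was rare everywhere but its share differed 22.2-fold between the highest and the lowest profile. With the reads of both 3p sequences counted, miR-486-3p made up 0.47% (95% Wilson interval 0.458 to 0.483) of miR-486 reads in muscle 1 and 0.218% (0.212 to 0.225) in muscle 2. It was 0.49% and 0.578% in the 2 small intestine profiles, 0.169% in occipital lobe, 0.118% in spinal cord, and 0.121% and 0.102% in large intestine. It was lowest in liver at 0.026% (0.0208 to 0.0325), kidney at 0.0751% and 0.0327%, and lung at 0.0381%. The small intestine, which was among the lowest in miR-486-5p, thus had the highest share of the 3p arm. Liver and lung, with 77 and 231 reads of the 3p arm, were low in it although their miR-486-5p was above that of kidney and intestine. Intervals cover counting error only, as reads carried no molecular identifiers.

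Both arms of miR-144 were recovered in every profile. The 5p share of miR-144 reads was 45.2% in liver (95% Wilson interval 41.2 to 49.2) and 46.2% in lung (43.2 to 49.3), and 52.4% in occipital lobe and 52.2% in spinal cord. It was 65.6% (57.0 to 73.3) in muscle 1, 71.6% (69.4 to 73.8) in muscle 2, and 68.4% and 63.7% in kidney. These shares depended on the counting rule. With only identical reads the share was 64.5% in liver, 69.7% in lung, 62.2% in occipital lobe and 60.9% in spinal cord. It was then 63.5% in muscle 1 and 80.1% in muscle 2, so lung and liver no longer stood below muscle 1. This rule does not treat the arms alike, since miR-144-5p was defined as the commonest read of its arm and miR-144-3p by the annotation. It kept 366 of 475 5p and 159 of 553 3p reads in lung, and 193 of 267 and 106 of 324 in liver. In muscle 1 it kept 54 of 84 and 31 of 44. The 4 intestinal profiles lay between 57.6% and 69.2% with 19 to 66 reads each, and their intervals were wide.

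**Figure D4:**
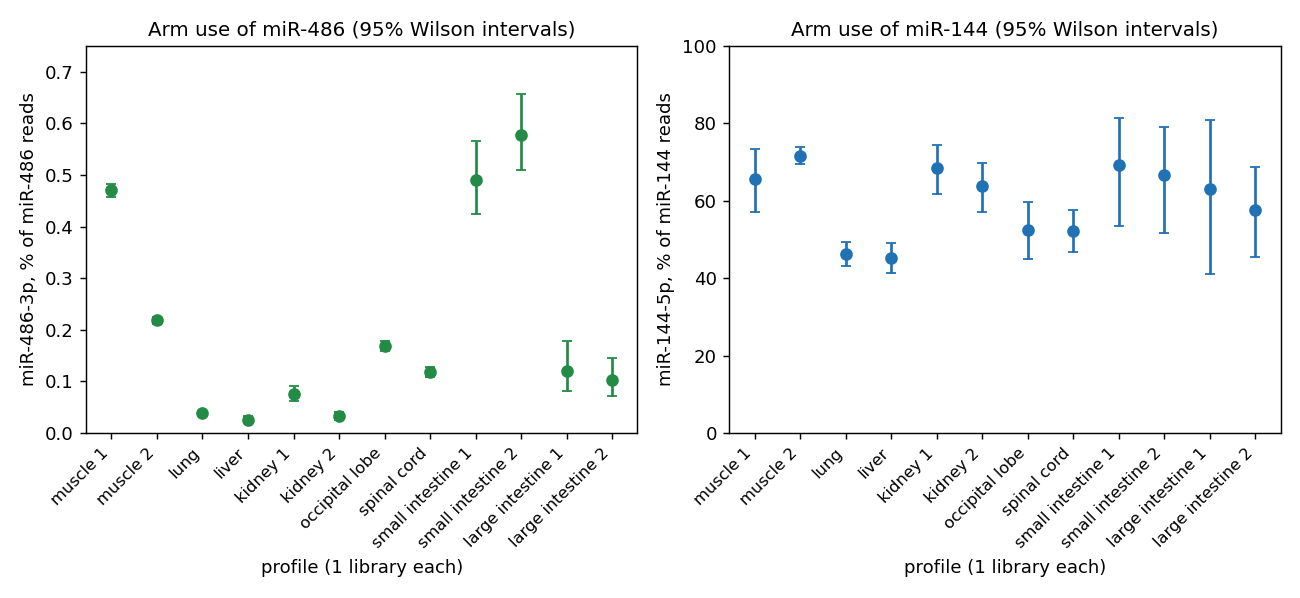
Share of the 3p arm among miR-486 reads (left) and of the 5p arm among miR-144 reads (right) in each profile, in percent with 95% Wilson intervals from counting error. The miR-486-3p share runs from 0.026% in liver to 0.578% in small intestine 2, and the miR-144-5p share from 45.2% in liver to 71.6% in muscle 2. Reads with both ends within 2 nt of the mature ends are counted, and with only identical reads the miR-144-5p share in liver was 64.5%.

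The reads of miR-451 had 1 fixed 5′ end and many 3′ ends. Of 25022 reads that matched its hairpin exactly, 24951 (99.7%) began at the annotated first base, and in each profile the share was between 99.1% and 100%. Their 3′ ends are shown with the last templated base in capitals.
miR-451 of 18 nt: aaaccguuaccauuacuG
miR-451 of 21 nt: aaaccguuaccauuacugagU
miR-451 of 23 nt: aaaccguuaccauuacugaguuU
miR-451 of 26 nt: aaaccguuaccauuacugaguuuagU
miR-451 of 30 nt: aaaccguuaccauuacugaguuuaguaauG
Over all profiles, 21 nt was the commonest length with 7847 reads (31.4%), followed by 23 nt with 6895 (27.6%), the annotated 22 nt with 4168 (16.7%) and 18 nt with 3143 (12.6%). Muscle 2 alone gave 12261 of these reads. By profile, 18 nt was commonest in both large intestine profiles, occipital lobe and spinal cord. The commonest length was 23 nt in kidney 1, liver and small intestine 1, and 21 nt in the rest. Over all profiles there were 615 reads of 24 nt, 206 of 25 nt and 617 of 26 nt. Only 19 reads were of 27 nt, 1 of 28 nt and 4 of 29 nt. The 30 nt form, the length known for the product of AGO2 cleavage before trimming, had 0 of 24951 reads, which allows a share of up to 0.012% of the sequenced reads, for counting error only. By the methods of the study, the library molecules were selected on a gel in a size range that ends at this length, and how well 30 nt products were recovered was not tested. Sequences in the files were 18 to 44 nt long, and 0.399% to 4.3% of all valid reads were of 30 nt or more.

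Over all profiles, the lengths fell into peaks at 18, 21, 23 and 26 nt with few reads between 18 and 21. The 18 nt form was no peak in muscle 2, with 150, 254 and 552 reads at 18, 19 and 20 nt. Nor was it in small intestine 2, with 22 and 30 reads at 18 and 19 nt. On the predicted fold, the 18 nt form ends at hairpin base 34, the last base before the loop, and the 22 nt form at base 38, the last base of the loop. Since the files start at 18 nt, shorter forms could not be seen.

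The share of the 18 nt form differed widely between profiles. It was 1.83% (95% Wilson interval 1.09 to 3.05) in muscle 1 and 1.22% (1.04 to 1.43) in muscle 2. It was 40.9% in occipital lobe, 37.4% in spinal cord, 36.4% and 31.9% in large intestine and 28.9% (27.6 to 30.2) in lung. It also differed within tissues, at 2.5% (1.57 to 3.97) in kidney 1 against 24.9% (22.4 to 27.6) in kidney 2, and 22.6% against 7.05% in small intestine 1 and 2. Liver was at 7.15%. Among all valid reads 18 nt sequences made up 0.327% in kidney 1 and 1.19% in kidney 2, 0.52% and 0.526% in muscle 1 and 2, and 3.31% in liver. Among reads of the other miRNAs that begin at their annotated base, 0.035% were of 18 nt in kidney 1 and 0.164% in kidney 2, and at most 0.783% in any profile, so the 18 nt share of miR-451 was above that of other miRNAs in all 12 profiles. Over the 12 profiles, which share the libraries, the 18 nt share of miR-451 had r = 0.50 (rho 0.76) with that of all valid reads and r = 0.68 (rho 0.61) with that of the other miRNAs. The part of library preparation in these shares was not tested.

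The mean length of reads over 18 nt was 21.8 to 22.2 nt in all 12 profiles, and with the 18 nt form it was 20.4 nt in occipital lobe to 22.1 nt in kidney 1. Reads over 24 nt made up between 1.88% in occipital lobe and 6.8% in liver. The 2 muscle profiles, which differed 17.0-fold in level, had mean lengths of 21.92 and 21.96 nt. The share over 22 nt was 32.2% (29.0 to 35.6) in muscle 1 and 39.5% (38.6 to 40.4) in muscle 2. Among reads of 21 to 23 nt, those of 23 nt made up 27.5% in lung to 42.7% in liver and small intestine 1, with 39.0% and 29.7% in kidney 1 and 2.

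**Figure D5:**
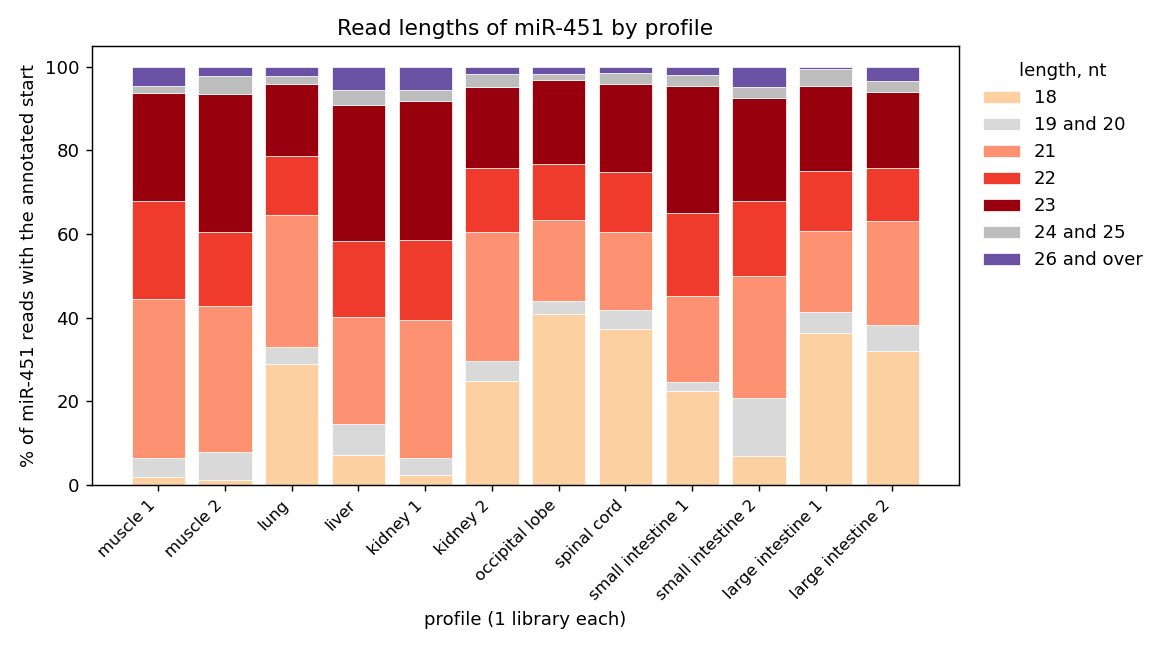
Read lengths of miR-451 in each profile, as percent of exactly matching reads that begin at the annotated first base, stacked from 18 nt at the bottom to 26 nt and over at the top. The 18 nt form takes from 1.22% in muscle 2 to 40.9% in occipital lobe, while 21, 22 and 23 nt make up most of the rest in every profile.

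Because the level of miR-451-5p counted reads whose ends lay within 2 nt of the annotated ends, the 18 nt form was left out of it. With any 3′ end allowed, the reads of miR-451-5p were 1.07-fold and 1.08-fold those counted in muscle 2 and 1, but 1.78-fold in occipital lobe and 1.51-fold in lung. The difference between muscle and the other profiles in the ratio of miR-486-5p to miR-451-5p then was 1.37 on the log2 scale (two-sided exact permutation test, p = 0.182). Counted in this way there were 1412 reads of miR-486-5p per miR-451-5p read in muscle 1, the highest of the 12, and 153 in muscle 2, the 7th, beside 664 in occipital lobe and 75.0 to 277 in the other 9. Muscle 1 was then 2.13-fold above the highest of the other 10 and muscle 2 0.23-fold of it.

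miR-486-5p often carried an added base at the 3′ end that the hairpins do not encode. Among miR-486-5p reads of 22 or 23 nt, a single added U made up 19.1% (occipital lobe) to 31.8% (large intestine 2) and a single added A 11.4% (muscle 1) to 23.8% (occipital lobe). Neither base is encoded after base 22 on either strand of the locus. Muscle 1 and muscle 2, at 11.4% and 14.2%, had the lowest shares of added A of the 12 profiles. Among reads of the other miRNAs a 1 nt tail of U stood at 1.28% to 10.3% and of A at 2.16% to 6.99%. That share was taken over their exact reads and their reads with a 1 nt tail, of all counted lengths. An added base that their hairpin also encodes is not seen as a tail there, so the 2 measures are not alike.

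For miR-451-5p, added bases could be told from encoded ones only in part, since its hairpin encodes U after bases 20, 21 and 22 and A after bases 18 and 23, and a U or A added there is counted as encoded. An added A that could be seen was found on 0% to 0.69% of its reads and an added U on 0% to 0.439%. Among reads of 20 to 22 nt, where an A would be seen, it was added to 0% to 1.14%, and among those of 23 nt, where a U would be seen, it was added to 0% to 2.7%, with 1 read in 37 at the upper end. An added C was found on 3.68% (large intestine 2) to 18.7% (liver) of reads. Other miRNAs had 1 nt tails of C at 8.35% to 25.1% in the same libraries, so a terminal C was found across the miRNAs of these libraries. The C share of miR-451-5p and that of other miRNAs had r = 0.74 (rho 0.80, n = 12 profiles, which share the libraries).

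Which strand of the miR-486 locus gave the reads could be read from few of them. The first base after the 22 nt of miR-486-5p is G on the plus strand and C on the minus strand. Reads of 23 nt ending in C were 1.95-fold to 10.4-fold those ending in G, but the share of C followed the C tails of other miRNAs over the profiles (r = 0.96, rho 0.94, n = 12), so this base does not tell the strands apart here. At the second base before miR-486-5p, 57 reads had the plus strand C and 35 the minus strand U, with 17 and 22 in muscle 1 and 17 and 7 in muscle 2. After miR-486-3p, 21 reads ended in the plus strand pair of bases and 1 in that of the minus strand, all of them in muscle 1, muscle 2 and occipital lobe, while 456 ended in neither pair, of which 218 were in muscle 1 and 159 in muscle 2. These were 92 and 22 reads beside 5358626 reads of miR-486-5p, and the strand of the rest cannot be told apart.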

How the data were processed

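The 12 small RNA profiles were deposited by the authors as raw counts, 1 row per unique sequence of 18 to 44 nt with its read count. Per the study's methods, reads with low-scored bases had been dropped and 3′ adapters cut. The mature names, hairpins and coordinates (Mmul_8.0.1) were taken from the pre-miRNA table of the study, of which 832 entries could be read. Reads that matched a hairpin exactly, with both ends within 2 nt of the ends of a mature miRNA, were counted for it. Identical mature sequences were counted once. Levels were scaled to 10000000 valid reads (RPTM), and miRNAs with a mean of at least 5 and an SD of at least 1 RPTM were kept. The depth of 22118095 to 25579064 reads per profile sets 1 read at 0.391 to 0.452 RPTM. Mature positions were recomputed from hairpin position and strand.

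Contrasts were fitted with edgeR 4.0.16 (glmQLFit, TMM factors, Benjamini-Hochberg over 372 miRNAs) on 12 profiles in 7 groups, with occipital lobe and spinal cord as 1 neural group. Each group of 2 profiles was compared with the mean of the other 6, and calls are at an adjusted p of 0.05. The TMM factors ran from 0.556 in large intestine 2 to 2.35 in spinal cord, with 1.74 in occipital lobe. RPTM levels do not use these factors, so levels and log2 fold changes are on different scales. In data simulated from the muscle contrast, 72 of 74 miRNAs changed 8-fold were recovered with 1 false call among 372. Only 8-fold changes were simulated, so the recovery of smaller ones was not tested. Ratios were compared by a two-sided exact permutation test. Correlations are across profiles and carry no p. Shares have 95% Wilson intervals, and a count of 0 allows 3 counts of the total. Hairpins were folded with RNAfold 2.7.2. Alternatives included DESeq2 1.42.0, other scalings and filters, other read assignments and leaving out each profile.

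All arms of the members were named, with at most 4 miRNAs of each marker list (those of highest mean RPTM) and the 5 miRNAs most like each of miR-451-5p, miR-144-3p and miR-486-5p. Members and lists were chosen with earlier results of these data known. The miR-486 sequences are not reported here.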

Additional observations from a re-analysis of the deposited data

How the results depend on the processing

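Of 25 arm-by-tissue tests, 9 were called. The count was 15 with total valid reads as the scale, 17 without the abundance filter, 17 with DESeq2, 5 of 20 with only identical reads and 3 with miR-451-5p and miR-144-3p as library size, and it was 7 to 17 when 1 profile was left out, with 17 without muscle 1. With only identical reads, miR-486-3p was not among the arms tested. With miR-451-5p and miR-144-3p as library size, these 2 arms are tested against their own sum. miR-451-5p then lay between -0.06 in neural tissue and 0.11 in muscle, so their lost calls on that scale are no measure of robustness. The cause of the other changes was not tested. miR-486-5p in muscle was 1.82 (edgeR adjusted p = 0.349) with the erythroid miRNAs as library size and 2.82 to 3.53 when 1 profile was left out, and it was called under each of the other alternatives. On the erythroid scale, leaving out each profile was chosen after seeing the data and gave -0.52 (without muscle 1) to 2.67 (without muscle 2). The difference in the ratio to miR-451-5p was -0.68 (without muscle 1) to 2.55, and that to miR-144-3p 0.86 to 3.45. With only identical reads the ratio to miR-144-3p could not be formed for all profiles, since large intestine 1 had 0 such reads. The change of sign in muscle for miR-144-5p from 2.53 was to -0.49 with the erythroid miRNAs as library size and to -0.29 without muscle 2, and leaving out 1 profile gave -0.29 to 3.42. The first of these changes is not independent of the scale, since miR-144-5p comes from the same hairpin as miR-144-3p. The median 5p share of miR-144 was 63.4% and was 69.7% with identical reads only, a rule that does not treat its 2 arms alike. The median miR-486-3p share and the mean length of miR-451 moved by less than the spread between replicates.

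The labels do not say that a replicate number marks an animal. Deviations from the tissue mean were correlated at a mean r of 0.034 between profiles with the same number, over 6 pairs of tissues (-0.14 to 0.15). With the replicate block on the 8 numbered profiles 11 of 20 tests were called, and 9 without it. Under the block miR-486-5p in kidney was called higher at 0.80 (edgeR adjusted p = 0.0435) and miR-451-5p in small intestine lower at -2.10 (edgeR adjusted p = 0.041). On these 8 profiles miR-144-3p in muscle was called with the block (2.05, edgeR adjusted p = 0.0123) and without it (0.0146), as was miR-486-3p in kidney (-1.90, edgeR adjusted p = 0.00803, and 0.00453), while miR-144-3p in small intestine was not called (edgeR adjusted p = 0.0531 and 0.0928). Where leaving out a profile left 1 in a group, that profile was assumed to vary like the others. At this depth miR-144-3p rested on 7 to 28 reads in the intestinal profiles.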
